A study of Mus musculus with 24 samples.

Results

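The comparison described here is between Setd3 knock-out and wild-type mouse embryonic stem cells on day 4, the last day sampled in a differentiation towards endoderm. Its members were taken from the sample labels by genotype and day: 3 knock-out and 3 wild-type libraries, 6 of the 24 libraries of the series. Both groups were CJ9 cells, an established mouse embryonic stem cell line. The knock-out is 1 line made with CRISPR-Cas9 and the wild-type is its parent line. Stem cells of both genotypes had been kept with LIF on inactivated embryonic fibroblasts, parted from these on day 0, grown without serum for 2 days and replated as single cells with Activin A, so that both groups had been exposed to Activin A for 2 days when RNA was taken. Polyadenylated RNA was sequenced, and gene counts summed to between 20651600 and 22250361 per knock-out library and between 20345447 and 21410794 per wild-type library.

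Setd3 encodes a SET-domain enzyme that methylates a histidine of actin. Activin A acts through the Nodal receptors and takes embryonic stem cells by way of a primitive streak state to definitive endoderm, while small numbers of cells take mesodermal or node fates. The study asked how loss of Setd3 affects this course. Early lineage genes are the best known readout of it. The account below describes the rest of the transcriptome: cilia, metabolism, cell cycle, stress responses, matrix, signalling and chromatin.

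Levels are given as CPM (counts scaled to a fixed library total) on library sizes scaled by the TMM method, for replicates 1, 2 and 3 in that order, or as mean ± SD of n = 3 libraries. CPM is not corrected for gene length, so levels are compared between genotypes and not between genes. Other gene values are log2 fold changes of knock-out over wild-type, and the ± is an approximate error, the size of the change divided by the root of the F statistic. Adjusted p-values come from the quasi-likelihood test of edgeR, adjusted by the Benjamini-Hochberg method over 17144 tested genes, and a gene is said to be higher, lower or changed only where its adjusted p was under 0.05. The labels do not say that replicates were separate cultures, so the p-values measure the spread between these samples, which may be technical.

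The targeted gene was lower in every knock-out library. Setd3 (ENSMUSG00000056770, GRCm38 chromosome 12, 108106431 to 108179314, minus strand) stood at 29.6, 29.1 and 31.1 CPM in the knock-out and at 127, 124 and 119.96 CPM in the wild-type (-2.05 ± 0.06, adjusted p = 6.21e-18). Transcript was thus reduced and still present. The sources used here do not give the exon that was edited, so a truncated or altered transcript cannot be told apart from an intact one.

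Of the 17144 tested genes, 9251 differed between the genotypes at day 4, or 54.0% of them. In the knock-out 4511 genes (26.3%) were higher and 4740 (27.6%) were lower. At least 2-fold changes leaned to the lower side, with 1281 genes higher (7.47%) and 1993 lower (11.6%). Counted without a test, the 3 knock-out libraries lay above all 3 wild-type libraries for 5019 genes (29.3%) and below them for 5390 (31.4%). The median log2 fold change of all tested genes was -0.01. The same test called 3611 genes at day 0, 5480 at day 2 and 7068 at day 3, so day 4 had the most calls of the 4 days. Of the genes at least 2-fold lower, 145 had 0 to 3 counts in the 3 knock-out libraries together, and of those at least 2-fold higher, 70 had as few in the wild-type. The lowest correlation of log2 CPM between libraries of a genotype was 0.989, and the highest between genotypes was 0.959.

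**Figure D1:**
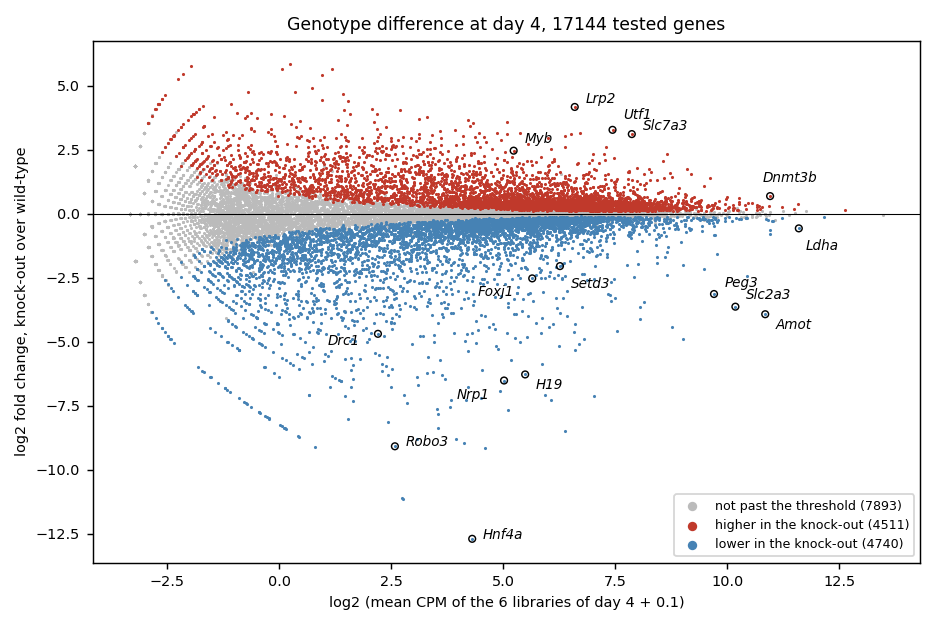
Log2 fold change of knock-out over wild-type (vertical) against log2 of the mean CPM of the 6 libraries of day 4 (horizontal) for 17144 tested genes, with 4511 higher genes in red, 4740 lower genes in blue and the others in grey. Circled genes are named in the text; the lower side reaches further from 0 than the higher side, and the fitted value of Hnf4a, which had 0 counts in the knock-out, is not a bound.

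Counting calls of any size, coding genes divided evenly and annotated non-coding RNAs did not. Of 14553 tested protein-coding genes 4235 were higher and 4275 lower. At least 2-fold, coding genes leaned to the lower side too, with 1130 higher and 1678 lower. Of 680 long intergenic RNAs 90 were higher and 140 lower, and of 355 antisense RNAs 27 were higher and 98 lower. The sources used here do not say whether strand was used in counting, so an antisense RNA cannot be told apart from the gene it overlaps.

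Position on the chromosomes moved with the genotype in 3 places. On chromosome 8, 366 of 845 tested genes were higher and 140 lower, with a median log2 fold change of 0.20. In a raised block of chromosome 12 that runs from Cep128 to Vrk1, 55 of 83 were higher and 7 lower (median 1.04). In a lowered block from Bcl11b to the end of that chromosome, which holds Setd3, 75 of 97 other genes were lower and 4 higher (median -0.92). Both blocks are named for the direction of their genes in these data, so their counts and medians describe them and are no test. Elsewhere in the genome 4086 of 16118 genes were higher and 4517 lower. Those 16118 genes held 90.2% of all genes at least 2-fold higher and 94.3% of those at least 2-fold lower. Tested genes named below that lie in these regions are marked as such, and the part that position has in their values was not tested.

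Folds were ranked among called genes without overlap between the libraries of the genotypes that reached a mean of 10 CPM in either, model names left aside. The largest falls ended at or near 0 counts. Hnf4a, the nuclear receptor of liver and gut epithelium, had 0 counts in the 3 knock-out libraries and 2488 in the wild-type ones (55.2, 39.1 and 23.97 CPM), which makes it at least 827-fold lower, with 3 counts over the group as the floor. Hand1 and Mesp1, transcription factors of early mesoderm, were likewise at 0 counts in the knock-out against 848 and 832 in the wild-type, at least 282-fold and 277-fold lower. Floors and intervals of counts cover counting error only. Kdr, the VEGF receptor of blood and vessel precursors, stood at 0, 0.0476 and 0.195 CPM against 75.2, 36.3 and 32.6 CPM in the wild-type (-9.15 ± 0.56, adjusted p = 4.04e-11). Pga5, a pepsinogen gene, stood at 0.408, 0.524 and 0.438 CPM against 246, 155 and 98.4 CPM (-8.49 ± 0.43, adjusted p = 1.56e-11), and Kcnj5, a potassium channel gene, at 0, 0.0476 and 0.146 CPM against 35.5, 19.6 and 13.9 CPM (-8.38 ± 0.52). Also among the 12 largest falls were Robo3 and Sfrp5, described below, Klhl6, Hkdc1 (a member of the hexokinase family), and Pilra and Pilrb2, neighbouring receptor genes of similar sequence whose counts may be shared. Absence of overlap was a condition of the ranking, so it is no result for these genes. Wild-type replicate 1 was the highest of the 6 for each gene for which values are printed here.

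Under the same limits the 12 largest rises were smaller in fold than the falls above. Lrp2, the endocytic receptor megalin, stood at 199.9, 169 and 181 CPM in the knock-out and 5.75, 10.6 and 14.1 CPM in the wild-type (4.17 ± 0.28, adjusted p = 1.03e-09). Aim2, a cytosolic DNA sensor gene, stood at 33.4, 34.5 and 34.8 CPM against 2.36, 3.35 and 2.41 CPM (3.65 ± 0.16, adjusted p = 2.57e-14). The knock-out level of Dnajc6, whose product uncoats clathrin vesicles, was 16.01 ± 0.704 CPM against 1.23 ± 0.121 CPM (3.70 ± 0.16). Also among the 12 largest rises were Ttbk1 (4.03 ± 0.25), Vat1l on chromosome 8 (3.76 ± 0.28), Slc35d3 (3.56 ± 0.23), Spon1 (3.55 ± 0.22), Rims4 (3.42 ± 0.21), Sema3c (3.29 ± 0.36), Utf1 (3.27 ± 0.21) and Tmem54 (3.22 ± 0.27). Here too the absence of overlap between the groups was set by the choice of genes.

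Ranked by the difference in CPM, abundant transcripts come first. Amot, a scaffold of the Hippo pathway, stood at 231, 183 and 269 CPM against 4062, 3283 and 3042 CPM in the wild-type, the largest fall in CPM (-3.93 ± 0.29, adjusted p = 5.19e-09). Emb, which encodes the monocarboxylate transporter partner embigin, stood at 417, 451 and 455 CPM against 2670.3, 2368 and 2039 CPM (-2.42 ± 0.09, adjusted p = 3.51e-14). Slc2a3, Peg3 and Ldha, described below, and the hormone precursor gene Trh (-0.80 ± 0.10) completed the 6 largest falls. The 6 largest rises were of Dnmt3b (0.69 ± 0.11), the nucleolin gene Ncl (0.37 ± 0.05), the poly(A) polymerase gene Papola in the raised block of chromosome 12 (1.38 ± 0.03), the kinase gene Pim2 (1.75 ± 0.22), L1td1 (1.57 ± 0.12) and the chaperone gene Hsp90ab1 (0.13 ± 0.03). For Hsp90ab1 the difference was 6587 ± 72.3 against 6015 ± 118 CPM, small in fold. Genes with overlap between the groups were left out of this ranking too.

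Marker genes differed in level between the populations at this day. All 17 definitive endoderm markers were lower, and their summed level was 1529 to 1914 CPM over the knock-out libraries and 5683 to 6331 CPM over the wild-type ones. Of 12 tested node and notochord markers 11 were lower, with sums of 106 to 218 CPM against 530 to 676 CPM. Mesoderm markers summed to 9.80 to 14.2 CPM against 133 to 250 CPM, with 10 of 12 tested genes lower, and Mesp1 and Hand1 at 0 counts in the knock-out. Msgn1 and, on chromosome 8, Hand2 were at 0 there too. They did not pass the filter on low counts, so they were not tested and their 0 is no call. Visceral and parietal endoderm markers summed to 10.2 to 12.3 CPM against 54.9 to 119 CPM. Ttr and Afp, also at 0 counts in the knock-out, were not tested for the same reason. Blood and endothelium markers summed to 42.2 to 76.1 CPM against 562 to 711 CPM, with 5 of 10 tested genes lower and 1 higher. Most of that sum was Flt1, a VEGF receptor (47.5 ± 16.5 CPM against 521 ± 41.95 CPM), and the higher member was Tal1, a factor of blood precursors, with 51 counts in the knock-out and 3 in the wild-type. Tek, Cd34, Pecam1 and Esam did not pass the test. Tie1 and Lmo2, at 0 in the knock-out, did not pass the filter and were not tested. Trophoblast markers summed to 86.4 to 140 CPM against 414 to 587 CPM, with 9 of 9 tested genes lower; most of that sum was Eomes, which is also a gene of streak and endoderm (105 ± 25.4 CPM against 413 ± 74.8 CPM). In the other direction, pluripotency markers summed to 1999 to 2092 CPM in the knock-out against 1393 to 1490 CPM, with 9 of 18 tested genes higher and 4 lower, and neuroectoderm markers to 436 to 461 CPM against 124 to 194 CPM, most of it from Nes, with 3 of 10 higher and 4 lower. Fibroblast feeder markers were low in both, 76.5 to 84.1 CPM against 103 to 114 CPM. Sox2 was listed at 0 counts in all 6 libraries and could not serve as a marker. So were the housekeeping genes Rpl13 and Cox4i1, both on chromosome 8, so a gene at 0 in all libraries of this table may still be expressed. In bulk RNA fewer cells of a type and less RNA per cell cannot be told apart, and the part of these marker differences in the pathway results below was not tested. Wild-type replicate 1 had the highest sums of the definitive endoderm, mesoderm, visceral endoderm, trophoblast and blood markers among the wild-type libraries and the lowest of the node markers, and knock-out replicate 3 had the highest sums of definitive endoderm, mesoderm and node markers among the knock-out libraries.

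**Figure D2:**
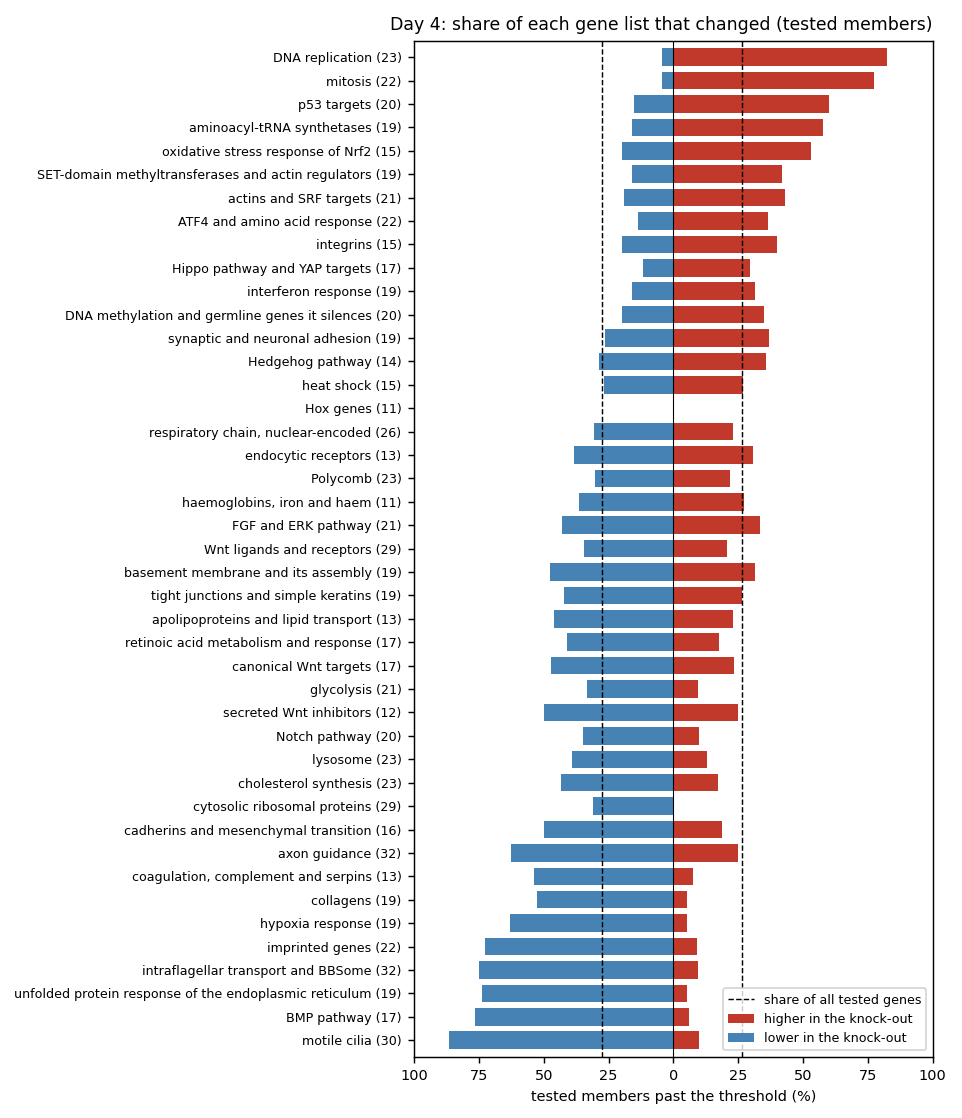
Share of the tested members of each of 43 pathway lists that was higher (red, to the right) or lower (blue, to the left) in the knock-out at day 4, in percent of the tested members, whose number stands in brackets. Dashed lines are the shares of all tested genes, 26.3% higher and 27.6% lower; DNA replication lies at one end with 82.6% higher and motile cilia at the other with 86.7% lower.

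Among the 43 pathway lists, motile cilia had the largest lower share. Motile cilia are built from axonemal dynein arms, radial spokes and tektin filaments under the transcription factors Foxj1 and Rfx2 or Rfx3, and in the embryo the node carries such cilia. Of 30 tested genes of motile cilia 26 were lower and 3 higher, 23 and 1 of them at least 2-fold, with a median of -2.30 beside -0.01 for all tested genes. Foxj1 itself stood at 12.1, 11.2 and 21.2 CPM in the knock-out and 52.96, 95.6 and 107 CPM in the wild-type (-2.53 ± 0.32, adjusted p = 2.93e-06). The groups did not overlap, and wild-type replicate 1 was the lowest of its group. Rfx2 (-1.14 ± 0.17) and Rfx3 (-0.63 ± 0.12) were lower by less.

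Several structural genes were lower by more than these factors. Drc1, a subunit of the dynein regulatory complex, stood at 0.318, 0.190 and 0.486 CPM against 4.77, 11.1 and 10.1 CPM (-4.69 ± 0.35, adjusted p = 5.95e-11). Enkur (-5.45 ± 0.41), Cfap126 (-4.34 ± 0.35), the tektin gene Tekt1 (-4.22 ± 0.43), the inner arm dynein gene Dnali1 (-4.30 ± 0.43), the radial spoke gene Rsph4a (-3.34 ± 0.34) and Pifo (-3.75 ± 0.42) were lower in all 3 knock-out libraries than in any wild-type library. Tekt4 had 0 counts in the knock-out and 83 in the wild-type, at least 27.6-fold lower. The 3 higher members were Myb, Dnah7a and Rsph1. Myb, a transcription factor of multiciliated cells and of many dividing progenitors, stood at 62.4, 66.5 and 61.7 CPM against 8.06, 13.6 and 12.9 CPM (2.46 ± 0.17, adjusted p = 5.12e-10), while Dnah7a (0.73 ± 0.26) and Rsph1 (0.62 ± 0.22) were higher by little, and neither was called without knock-out replicate 2 (0.58 and 0.50) or without wild-type replicate 1 (0.42 and 0.38). Mcidas, the inducer of multiciliated cells, was at 0.0455 to 0.140 CPM in the wild-type and did not pass the test. Most members were of low level, so that counts limit the precision of single genes. Several are also node genes, and Foxj1, Cfap126 and Pifo are among the 12 node markers too.

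The promoters of several of these genes hold a motif of the RFX factors. RefSeq promoter windows on GRCm38.p6, from 250 bases before to 50 after the start site, were matched by symbol to 26 of the 30 tested cilia genes and searched on both strands for the X-box element GTTGCCA. It was found in 7 of the 26 (26.9%), against 5.02% of 27025 symbols with a window and 4.67% of the 12043 tested genes with one. Of the 23 lower members with a window 6 held it. The stretches shown here are the 60 bases before the start around the match for 3 strongly lowered genes, with the match in capitals as it reads on the strand of the gene (TGGCAAC is the element on the other strand). They lie at chr5:30281333-30281392 on the plus strand for Drc1, chr11:72361883-72361942 on the minus strand for Tekt1 and chr3:106001498-106001557 on the minus strand for Pifo.
Drc1: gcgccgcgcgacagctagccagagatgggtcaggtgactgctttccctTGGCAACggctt
Tekt1: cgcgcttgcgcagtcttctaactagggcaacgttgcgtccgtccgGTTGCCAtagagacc
Pifo: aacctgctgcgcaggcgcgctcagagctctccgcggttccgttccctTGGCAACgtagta
In all 3 the element begins 12 to 15 bases before the start site. A match of letters is a description and not a bound site, and genes without a match in this window were lowered as well, among them Enkur and Cfap126.

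Genes of intraflagellar transport and the BBSome, which build and load all cilia, motile or not, were lower by smaller amounts. Of 32 tested genes 24 were lower and 3 higher, 5 and 0 of them at least 2-fold, and the median was -0.55. Kif3a, a motor subunit of the transport, stood at 19.8, 21.2 and 20.6 CPM against 53.2, 55.04 and 58.2 CPM (-1.43 ± 0.09, adjusted p = 4.98e-12). Ttc26 (-2.02 ± 0.10), Kif3b (-0.98 ± 0.06), Dync2li1 (-1.52 ± 0.12), Ift81 (-1.15 ± 0.10) and Bbs1 (-1.98 ± 0.22) were lower without overlap. Against them Ttc21b (0.80 ± 0.08) and Traf3ip1 (0.71 ± 0.08), both also components of the transport, were higher. GTTGCCA was found in 7 of 28 windows, among them those of Ttc26, Bbs1, Ift88 and Dync2h1, which were lower, of Traf3ip1, which was higher, and of Ift27 and Wdr35, which did not pass the test (-0.19 ± 0.10 and 0.03 ± 0.07).

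The glucose transporter gene Slc2a3 and the lactate transporter gene Slc16a1 were lower in the knock-out, while 12 of 21 tested genes of the glycolysis list did not pass the test. Slc16a3, of the same gene family as Slc16a1, was among those that did not pass (0.31, adjusted p = 0.202). Slc2a3, the high-affinity glucose transporter GLUT3, stood at 165, 169 and 187 CPM against 2490.1, 2189.9 and 1776 CPM in the wild-type (-3.63 ± 0.19, adjusted p = 3.46e-11). Slc16a1, the monocarboxylate transporter MCT1, stood at 255, 277 and 262 CPM against 1327, 1222 and 975 CPM (-2.15 ± 0.08, adjusted p = 1e-15). Both groups were far apart for both transporters, and Emb, given above, encodes a partner protein of this transporter family. At day 3 the same differences had been -0.20 and 0.03, and the change between days was -3.43 ± 0.25 for Slc2a3 (adjusted p = 3.53e-08) and -2.18 ± 0.11 for Slc16a1 (adjusted p = 2.89e-12). Of the whole list, which holds these transporters, 7 were lower and 2 higher, with a median of -0.09. The lower enzymes were Ldha (-0.57 ± 0.09), Pgk1 (-0.61 ± 0.13) and Tpi1 (-0.41 ± 0.13, not called without knock-out replicate 1, -0.35, or wild-type replicate 2, -0.34), with Slc2a1 (-0.74 ± 0.17) and the regulator Pfkfb3 (-0.63 ± 0.19, not called without wild-type replicate 2, -0.47), and the higher ones were the phosphofructokinase Pfkm, at 104, 103 and 99.2 CPM against 42.05, 48.5 and 47.2 CPM (1.15 ± 0.07), and the hexokinase Hk1 (0.48 ± 0.11). Gapdh stood at 207, 36.2 and 108 CPM in the knock-out, a spread far wider than that of its neighbours in the pathway; it has many near-identical pseudogenes and its counts are uncertain.

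Hypoxia response genes, which HIF factors induce when oxygen or prolyl hydroxylation is low, were tested in 19 cases. Of these 12 were lower (7 without knock-out replicate 1 or wild-type replicate 2) and 1 higher, 4 and 0 at least 2-fold, with a median of -0.44. Vegfa, the vascular growth factor, stood at 15.1, 15.6 and 16.3 CPM against 77.8, 66.8 and 62.6 CPM (-2.14 ± 0.11, adjusted p = 1.41e-13). The groups did not overlap. Loxl2 (-3.16 ± 0.28), the collagen prolyl hydroxylase P4ha1 (-2.49 ± 0.22) and the adenylate kinase Ak4 (-1.57 ± 0.21) were lower by more than 2-fold, and Bnip3l (-0.70 ± 0.09) and the histone demethylase Kdm3a (-0.38 ± 0.07) by less. The pyruvate dehydrogenase kinase Pdk1 was higher (0.74 ± 0.14, adjusted p = 0.000152).

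The core of the hypoxia response element, ACGTGC, was searched in the same RefSeq windows on both strands. It was found in 9 of 15 windows of tested hypoxia genes and in 8 of 20 of the glycolysis list, against 6.68% of all symbols and 9.33% of tested genes. It was in the windows of 7.2% of the genes at least 2-fold lower and of 10.4% of those at least 2-fold higher. Shown are the 60 bases that hold it upstream of 4 lowered genes, with the match in capitals (GCACGT is the core on the other strand), at chr10:59323236-59323295 on the plus strand for P4ha1, chr7:138909581-138909640 on the minus strand for Bnip3, chr7:46845742-46845801 on the plus strand for Ldha and chr4:119108682-119108741 on the plus strand for Slc2a1.
P4ha1: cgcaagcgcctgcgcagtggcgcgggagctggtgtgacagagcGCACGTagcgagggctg
Bnip3: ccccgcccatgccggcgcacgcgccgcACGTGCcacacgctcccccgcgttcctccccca
Ldha: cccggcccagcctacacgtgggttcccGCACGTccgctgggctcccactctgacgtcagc
Slc2a1: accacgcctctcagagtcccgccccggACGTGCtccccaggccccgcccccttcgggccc
Of the members of both lists that were lower and had a window, 7 of 9 and 4 of 6 held the core, and so did Hk1, which was higher. A short core of this kind occurs by chance in many promoters, and its presence says nothing of binding in these cells.

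Genes of DNA synthesis and cell division were higher, by small and even amounts. Of 23 tested genes of DNA replication 19 were higher and 1 lower, none of them 2-fold, with a median of 0.31. Mcm5, a subunit of the replicative helicase on chromosome 8, stood at 618, 618 and 593 CPM against 328, 349 and 372 CPM (0.80 ± 0.05, adjusted p = 2.12e-12). The DNA ligase gene Lig1 stood at 329, 319.9 and 328 CPM against 189, 205 and 208 CPM (0.70 ± 0.05, adjusted p = 5.25e-11). Groups were apart for both. The sliding clamp gene Pcna (0.51 ± 0.04), the helicase genes Mcm2 (0.52 ± 0.04) and Mcm3 (0.48 ± 0.05) and the primase partner Pola1 (0.66 ± 0.07) were higher likewise. The median had been 0.06 at day 3 and 0.02 at day 0, and for 15 of the 23 the difference was larger at day 4 than at day 3.

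Mitotic genes followed. Of 22 tested 17 were higher and 1 lower, with a median of 0.28. Bub1b, of the spindle checkpoint, stood at 322, 327 and 315 CPM against 191, 209 and 209 CPM (0.66 ± 0.05, adjusted p = 4.75e-11). The mitotic kinase Plk1 (0.51 ± 0.05), the cyclins Ccna2 (0.46 ± 0.04) and Ccnb1 (0.37 ± 0.05) and the anaphase activator Cdc20 (0.38 ± 0.05) were higher as well. Each of these mitotic genes was also higher at day 2, by less. At days 0, 2 and 3 the differences were 0.20, 0.32 and 0.34 for Bub1b and 0.33, 0.26 and 0.21 for Plk1. They were 0.12, 0.14 and 0.04 for Ccna2, 0.13, 0.20 and 0.08 for Ccnb1, and -0.01, 0.15 and 0.08 for Cdc20. The list of p53 targets, many of which restrain the cell cycle or promote death, had 12 of 20 higher and 3 lower (median 0.23). Eda2r, a death receptor gene, stood at 81.7, 79.9 and 81.1 CPM against 39.8, 43.3 and 50.3 CPM (0.86 ± 0.08, adjusted p = 1.82e-09). Mdm2 (0.38 ± 0.07), the p53 antagonist, and the stress sensor Sesn2 (0.63 ± 0.08) were higher, while Perp (-1.20 ± 0.13) and the death receptor Fas (-2.21 ± 0.42) were lower. Among the higher members Gtse1 (0.66 ± 0.08) is known as a gene of the G2 and M phases.

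**Figure D3:**
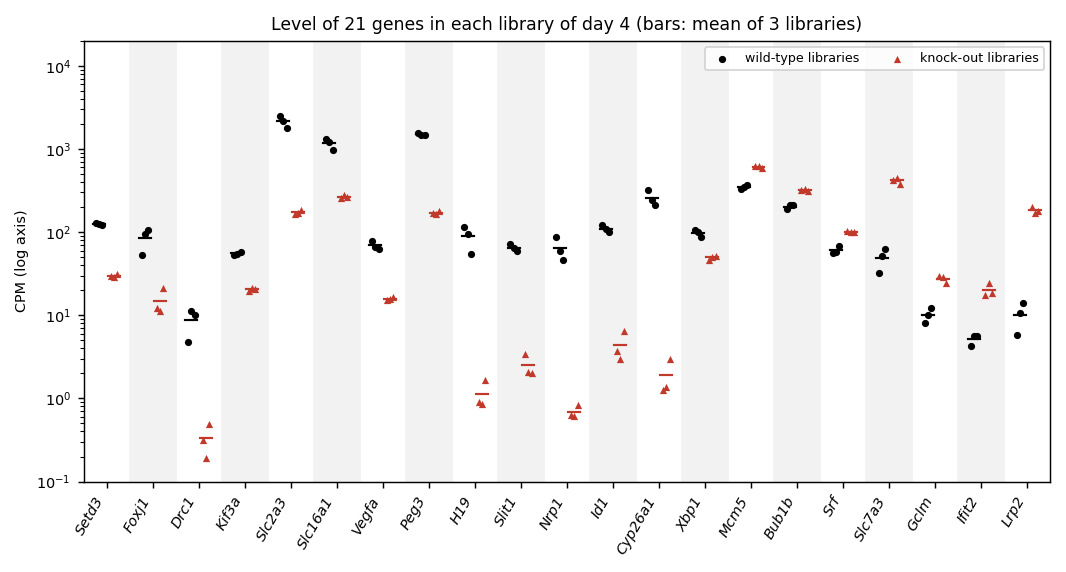
CPM on a log axis of 21 genes in the 3 wild-type (black circles) and 3 knock-out libraries (red triangles) of day 4, with a bar at the mean of each group. Genes from Setd3 to Xbp1 were lower in the knock-out and those from Mcm5 to Lrp2 were higher, and in no gene shown do the libraries of both groups overlap.

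Most genes of endoplasmic reticulum folding were lower. The unfolded protein response raises chaperones and degradation factors of the endoplasmic reticulum when secretory load grows. Of 19 tested genes 14 were lower and 1 higher, none 2-fold, with a median of -0.32. Xbp1, the spliced transcription factor of the response, stood at 46.2, 50.7 and 51.9 CPM against 106, 100.3 and 86.1 CPM (-0.98 ± 0.09, adjusted p = 1.57e-09). The chaperone gene Hspa5 (BiP) stood at 772 ± 47.2 CPM against 975 ± 30.8 CPM (-0.34 ± 0.06). Manf (-0.59 ± 0.06), the disulfide isomerases Pdia6 (-0.54 ± 0.05) and Pdia3 (-0.48 ± 0.07) and the degradation factor Edem1 (-0.44 ± 0.05) were lower. Sel1l, the higher member (0.82 ± 0.07), lies in the raised block of chromosome 12.

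Other stress programmes moved differently. The counts given here stand beside 26.3% higher and 27.6% lower, or 54.0% changed, of all tested genes. In the ATF4 and amino acid response, which answers amino acid shortage, 8 of 22 tested genes were higher and 3 lower (1 without knock-out replicate 1 or wild-type replicate 2), with a median of 0.09. Slc7a3, a cationic amino acid transporter gene, stood at 427, 449 and 383 CPM against 32.4, 51.1 and 62.2 CPM, the strongest rise of the list (3.11 ± 0.19, adjusted p = 2.09e-10). The serine synthesis genes Phgdh (0.58 ± 0.08) and Psat1 (0.32 ± 0.06), the folate enzyme Mthfd2 (0.61 ± 0.08) and Atf3 (1.76 ± 0.24) were higher, and Vldlr, a lipoprotein receptor gene that ATF4 also activates, was lower (-3.13 ± 0.21). Of 15 tested genes of the Nrf2 response to oxidants 8 were higher and 3 lower, and without chromosome 8 and distal chromosome 12 the higher count was 5. The glutathione synthesis genes Gclm, at 29.8, 28.6 and 24.2 CPM against 8.11, 10.2 and 12.2 CPM (1.43 ± 0.13, adjusted p = 1.82e-09), and Gclc (0.82 ± 0.07) and the transferase gene Gstm1 (1.38 ± 0.11) were higher outside these regions. Srxn1, a sulfiredoxin, was lower (-0.91 ± 0.09). Of 15 heat shock genes 4 were higher and 4 lower, 26.7% each way, which is near the 26.3% and 27.6% of all tested genes: Hspd1 was higher (0.32 ± 0.05), and Serpinh1, the collagen chaperone, was lower (-0.96 ± 0.19), as was Hsp90aa1 in the lowered block of chromosome 12 (-0.65 ± 0.08). Aminoacyl-tRNA synthetase genes were higher in 11 of 19 and lower in 3, with Iars (0.36 ± 0.05) and Vars (0.42 ± 0.07) higher; of the strongest members Kars (0.67 ± 0.05) and Aars (0.65 ± 0.05) lie on chromosome 8 and Wars (-0.95 ± 0.05), which was lower, in the lowered block.

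Extracellular matrix and adhesion genes were lower in part and exchanged in part. Of 19 tested collagen genes 10 were lower and 1 higher, 9 and 1 at least 2-fold, with a median of -1.08. Col23a1, a transmembrane collagen, stood at 1.32, 1.48 and 1.22 CPM against 108, 61 and 42.9 CPM (-5.72 ± 0.40, adjusted p = 6.51e-10). Col13a1 (-3.58 ± 0.28), Col9a3 (-2.23 ± 0.15) and the basement membrane chains Col4a1 (-2.04 ± 0.25) and Col4a2 (-2.40 ± 0.29), neighbours on chromosome 8 that share a promoter region, were lower. Col18a1, whose product yields endostatin, was the higher one at 207, 188 and 181 CPM against 36.6, 50.7 and 57.95 CPM (1.98 ± 0.16, adjusted p = 6.38e-09). Among 19 basement membrane genes 9 were lower and 6 higher: Frem1 (-2.67 ± 0.23), Lamb3 (-2.68 ± 0.27), Nid1 (-1.38 ± 0.16) and Lama1 (-1.49 ± 0.22) were lower, and Fras1 (1.24 ± 0.19) and Lama3 (1.27 ± 0.27) were higher. Integrin genes, the receptors of this matrix, were higher in 6 of 15 and lower in 3. Itga6, a laminin receptor subunit, stood at 173, 174 and 163 CPM against 89.7, 99.7 and 91.4 CPM (0.86 ± 0.06, adjusted p = 7.54e-12) and Itga3 was at 1.72 ± 0.20, while the fibronectin receptor subunit Itga5 stood at 38.1, 35.3 and 40.5 CPM against 115, 93.6 and 88.8 CPM (-1.38 ± 0.14, adjusted p = 6.5e-08). Fibronectin itself, Fn1, was lower (-1.69 ± 0.29).

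Epithelial junction and filament genes did not move as a block. Of 19 tested genes of tight junctions and simple keratins 8 were lower and 5 higher. The keratins Krt8, at 170.4, 189 and 195 CPM against 650.4, 603 and 543 CPM (-1.70 ± 0.24, adjusted p = 1.18e-05), and its partner Krt18 (-1.07 ± 0.23) were lower, and the claudin Cldn4, at 42.8, 42.4 and 42.7 CPM against 3, 7.45 and 8.01 CPM (2.78 ± 0.25, adjusted p = 3.19e-08), was higher with Cldn3 (1.196 ± 0.21). In the list of cadherins and mesenchymal transition 8 of 16 were lower and 3 higher. N-cadherin, Cdh2, stood at 26.5, 25.7 and 35.8 CPM against 356, 293 and 288 CPM (-3.41 ± 0.28, adjusted p = 1.85e-08), and the repressors Snai1 (-3.03 ± 0.25) and Zeb1 (-2.83 ± 0.34) were lower, while E-cadherin, Cdh1 (0.44 ± 0.06), and P-cadherin, Cdh3 (1.45 ± 0.16), both on chromosome 8, and Grhl2 (0.79 ± 0.11) were higher. Without chromosome 8 and distal chromosome 12 the higher member was Grhl2 alone.

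Actin genes bear on the known substrate of Setd3. Of 21 tested genes of actins and SRF targets 9 were higher and 4 lower, with a median of 0.32, and for 8 of them the difference was more positive than at day 3. Srf, the serum response factor, stood at 103, 99.96 and 100.4 CPM against 55.9, 57.5 and 68.2 CPM (0.74 ± 0.07, adjusted p = 6.52e-09). Its smooth muscle targets Cnn1, at 56.99, 59.98 and 64.6 CPM against 8.26, 13.5 and 17.1 CPM (2.22 ± 0.25, adjusted p = 4.17e-07), and Myl9 (2.29 ± 0.28) were higher by most. The cytoplasmic actin Actg1 (0.35 ± 0.05), vinculin, Vcl (0.41 ± 0.08), and filamin, Flna (0.32 ± 0.07), were higher by less, and the immediate early genes Fos (-1.94 ± 0.38) and, on chromosome 8, Junb (-0.62 ± 0.15) were lower. Differences at day 3 were small for the first of these, 0.12 for Srf, 0.33 for Cnn1 and 0.16 for Myl9. In the list of other SET-domain methyltransferases and actin regulators, 8 of 19 were higher and 3 lower: Setd7 stood at 173 ± 7.72 CPM against 99.9 ± 5.80 CPM (0.79 ± 0.10, adjusted p = 3.86e-07), profilin, Pfn1 (0.28 ± 0.05), was higher, and Pfn2 (-0.82 ± 0.16) and the thymosins Tmsb4x (-0.78 ± 0.13) and Tmsb10 (-0.37 ± 0.07) were lower.

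Hippo pathway genes, which couple actin tension to YAP, moved singly rather than together, with 5 of 17 higher and 2 lower (1 without knock-out replicate 2 or 3 or wild-type replicate 1). Tead4, a DNA-binding partner of YAP, stood at 2.72, 3.43 and 3.36 CPM against 40.7, 26.96 and 27.2 CPM (-3.32 ± 0.20, adjusted p = 6.25e-12), while Ajuba stood at 227, 221 and 219 CPM against 70.6, 91.8 and 94.9 CPM (1.37 ± 0.09, adjusted p = 1.91e-11). Amotl2 (0.86 ± 0.16) and Ptpn14 (0.77 ± 0.18) were higher, in contrast to Amot, given above.

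BMP signalling patterns mesoderm and surface ectoderm and is held in check by secreted antagonists. Of 17 tested genes of the pathway 13 were lower and 1 higher, 12 and 1 at least 2-fold, with a median of -1.94. Id1, a direct target that blocks bHLH factors, stood at 3.68, 2.95 and 6.42 CPM against 122, 109 and 100.3 CPM (-4.67 ± 0.33, adjusted p = 1.51e-09). Msx2, a homeobox target, stood at 0.227, 0.238 and 0.292 CPM against 23.5, 17.6 and 16.4 CPM (-6.22 ± 0.38, adjusted p = 2.57e-12). The inhibitory Smad6 (-2.58 ± 0.16) and pseudoreceptor Bambi (-1.94 ± 0.13) were lower, as were the ligands Bmp2 (-2.35 ± 0.32), Bmp5 (-3.42 ± 0.41) and Bmp7 (-1.62 ± 0.26) and the extracellular modulators Bmper (-4.80 ± 0.43), Nog (-4.74 ± 0.63) and Chrd (-0.91 ± 0.27), the last with overlap between the groups and no call without wild-type replicate 3 (-0.66). Smad7, an inhibitor that also answers Activin, was the higher one (1.11 ± 0.12). The ligand Bmp4 (0.35 ± 0.24), the antagonist Grem1 (0.79 ± 0.68) and the target Id2 (0.12 ± 0.12) did not pass the test.

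FGF and Wnt genes moved in both directions, as did all tested genes, of which 26.3% were higher and 27.6% lower, or 54.0% changed. In FGF and ERK signalling 9 of 21 tested genes were lower and 7 higher. Of the ligands, Fgf10 stood at 0.408, 0.286 and 0.778 CPM against 82.6, 54.6 and 43.03 CPM (-6.93 ± 0.51, adjusted p = 2.04e-09) and Fgf3 was lower (-4.74 ± 0.32), while Fgf4 stood at 58.5, 58.6 and 44.9 CPM against 4.77, 8.15 and 9.28 CPM (2.86 ± 0.22, adjusted p = 3.69e-09) and Fgf15 was higher (2.56 ± 0.31). Of the downstream genes Etv5 (1.28 ± 0.10), Etv1 (1.13 ± 0.12) and Spry2 (0.95 ± 0.11) were higher and Spry4 (-0.80 ± 0.08) and, on chromosome 8, the phosphatase Dusp4 (-1.59 ± 0.11) lower. Of 29 Wnt ligands and receptors 10 were lower and 6 higher. The receptor Fzd5 stood at 38.4, 36.5 and 43.8 CPM against 626, 475 and 384 CPM (-3.64 ± 0.14, adjusted p = 2.43e-13), with Fzd8 (-2.55 ± 0.23) and the ligand Wnt5a (-3.96 ± 0.38) also lower and Fzd4 (1.72 ± 0.14) and Rspo1 (2.38 ± 0.19) higher. Of 12 secreted Wnt inhibitors 6 were lower and 3 higher: Sfrp5 stood at 0.499, 0.0952 and 0.389 CPM against 98.6, 66.3 and 39.6 CPM (-7.66 ± 0.40, adjusted p = 4.1e-12), Shisa2 (-3.29 ± 0.17) and, on chromosome 8, Sfrp1 (-4.12 ± 0.27) were lower, and Sfrp2 (1.42 ± 0.13) and Sfrp4 (1.88 ± 0.24) higher. Of 17 canonical Wnt targets 8 were lower and 4 higher, with Lgr5 (-2.01 ± 0.36) and Rnf43 (-0.996 ± 0.17) lower and Ccnd1 (0.81 ± 0.11), Lef1 (0.85 ± 0.16) and Tcf7 (0.50 ± 0.12) higher.

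Notch genes were changed in 9 of 20 tested cases, or 45.0%, beside 54.0% of all tested genes, and Hedgehog genes in 9 of 14. In the Notch list 7 of 20 were lower and 2 higher. The target Hey1 stood at 6.67, 6.85 and 6.62 CPM against 37.3, 27.8 and 22.7 CPM (-2.12 ± 0.16, adjusted p = 1.06e-10), and the ligands Jag1 (-1.55 ± 0.18), Dll1 (-2.25 ± 0.25) and Dll3 (-1.14 ± 0.11) and the target Hes1 (-1.18 ± 0.15) were lower; the higher ones, Hes5 and Hes7, had low levels of 0.315 ± 0.0276 and 0.594 ± 0.218 CPM in the knock-out, and the higher count was 0 in a fit of the 6 libraries alone and 4 without knock-out replicate 2 or wild-type replicate 3. In the Hedgehog list 5 of 14 were higher and 4 lower. The transcription factors Gli3, at 106, 88.9 and 93.9 CPM against 26.4, 30.7 and 35.3 CPM (1.65 ± 0.14, adjusted p = 3.21e-09), and Gli2 (1.22 ± 0.19) were higher. The ligand Shh had 2 counts in the knock-out and 71 in the wild-type, a ratio of wild-type to knock-out of 35.4 (95% interval 9.44 to 298). The higher count of this list was 2 without knock-out replicate 1 or wild-type replicate 1.

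Among 17 genes of retinoic acid metabolism and response 7 were lower, all at least 2-fold, and 3 higher. Cyp26a1, which degrades retinoic acid, stood at 1.27, 1.38 and 3.02 CPM against 319, 246 and 214 CPM (-7.11 ± 0.55, adjusted p = 8.64e-09). Its paralogue Cyp26c1 had 3 counts against 286, a ratio of wild-type to knock-out of 95.1 (95% interval 32.2 to 464). The receptor Rarb (-3.78 ± 0.32), the uptake receptor Stra6 (-2.22 ± 0.26) and the binding proteins Rbp4 (-2.91 ± 0.32) and Crabp1 (-1.74 ± 0.22) were lower, while Rarg (1.23 ± 0.12) and Crabp2 (2.61 ± 0.21) were higher.

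Axon guidance genes, whose products also steer migrating mesoderm and vessels, were changed in 28 of 32 tested cases, with 20 lower and 8 higher, 17 and 4 at least 2-fold, and a median of -1.09. In the Slit and Robo system, the ligand Slit1 stood at 3.45, 2.09 and 2.04 CPM against 71.3, 64.6 and 58.8 CPM (-4.67 ± 0.23, adjusted p = 1.51e-13) and Slit2 was lower (-2.00 ± 0.31), while Slit3 was higher (0.94 ± 0.27). The receptor Robo3 had 1 count in the knock-out and 745 in the wild-type, a ratio of wild-type to knock-out of 743 (95% interval 133 to 29400), and Robo1 was lower (-1.07 ± 0.11). In the semaphorin system the receptor Nrp1, on chromosome 8, stood at 0.635, 0.619 and 0.827 CPM against 86.3, 59.2 and 46.4 CPM (-6.52 ± 0.45, adjusted p = 8.92e-10). Its co-receptors Plxna2 (-3.98 ± 0.29) and Plxna4 (-6.08 ± 0.43) and the ligands Sema6d (-5.16 ± 0.35), Sema3a (-3.02 ± 0.36) and Sema3f (-1.96 ± 0.26) were lower. Other semaphorins went the opposite way: Sema6a stood at 177, 147 and 174 CPM against 45.3, 57.8 and 73.2 CPM (1.496 ± 0.18, adjusted p = 1.17e-06), and Sema3c (3.29 ± 0.36) and Sema3e (1.26 ± 0.11) were higher. Among ephrins and their receptors Epha4 (-1.70 ± 0.09), Epha7 (-1.38 ± 0.14) and Efnb1 (-2.85 ± 0.23) were lower and Efnb2, on chromosome 8, was higher (1.05 ± 0.12). Netrin, Ntn1, stood at 8.80 ± 3.54 CPM against 92.7 ± 5.12 CPM (-3.40 ± 0.32). Genes of synapses and neuronal adhesion showed no such lean, with 7 of 19 higher and 5 lower (3 without wild-type replicate 1). Cntnap2 (-1.59 ± 0.12) and Grin1 (-2.86 ± 0.42) were lower and Nrxn2 (1.40 ± 0.14) and Dlg2 (1.49 ± 0.23) higher.

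Lists of secreted plasma proteins, lipid transport and lysosomes held more lower than higher members. Those of uptake and iron were near even, with a difference of 1 gene. Of all tested genes 27.6% were lower and 26.3% higher. Of 13 tested genes of coagulation, complement and serpins 7 were lower and 1 higher (median -1.29). Tfpi, an inhibitor of coagulation, stood at 4.04, 3.95 and 4.28 CPM against 51.3, 30.9 and 25.98 CPM (-3.14 ± 0.19, adjusted p = 1.42e-11), factor V, F5, was at -2.76 ± 0.25, and tissue factor, F3, was higher (1.59 ± 0.24). Of 13 genes of apolipoproteins and lipid transport 6 were lower and 3 higher. Apob (-3.18 ± 0.44) and the lipid transfer protein Mttp (-1.53 ± 0.18) were lower, and Apoa1 had 3 counts against 168 (ratio of wild-type to knock-out 55.8, 95% interval 18.8 to 273), while Slc27a2 (1.49 ± 0.15), Abcg1 (1.67 ± 0.19) and Apoc1 (1.15 ± 0.20) were higher. Of the endocytic receptors 5 of 13 were lower (3 without knock-out replicate 3) and 4 higher (2 without replicate 1 of either genotype), with Vldlr lower and Lrp2 higher as given above. In iron handling the exporter Slc40a1 stood at 35.2, 39.4 and 34.5 CPM against 118, 93.2 and 78.97 CPM (-1.41 ± 0.12, adjusted p = 3.57e-10) and ferritin, Fth1, was at -1.11 ± 0.09. The full list of haemoglobins, iron and haem had 4 of 11 lower and 3 higher. Lysosomal genes were lower in 9 of 23 and higher in 3 (5 by DESeq2). The protease Ctsh stood at 0.545, 0.476 and 0.924 CPM against 25.3, 14.6 and 13.3 CPM (-4.77 ± 0.36, adjusted p = 1.51e-10), with the cholesterol exporters Npc1 (-0.86 ± 0.08) and Npc2 (-0.78 ± 0.13) lower and the hexosaminidase Hexa higher (1.04 ± 0.08).

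Imprinted genes, expressed from 1 parental allele, were mostly lower. Of 22 tested 16 were lower and 2 higher, 9 and 1 at least 2-fold, with a median of -0.71. The difference was more negative at day 4 than at day 3 for 16 as well. These are not all the same genes, since Sgce and Cdkn1c did not pass the test at day 4. Peg3, a zinc finger gene expressed from the paternal allele, stood at 169.8, 164 and 178 CPM against 1561, 1471 and 1466 CPM (-3.14 ± 0.10, adjusted p = 9.08e-16). Its neighbours Usp29 (-3.27 ± 0.14) and Zim1 (-2.06 ± 0.19) were lower as well, and Usp29 and Peg3 start close to each other. The maternally expressed H19 stood at 0.908, 0.857 and 1.65 CPM against 115, 95.9 and 54.4 CPM (-6.28 ± 0.63, adjusted p = 2.03e-07). Mest (-2.39 ± 0.12), Peg10 (-2.48 ± 0.19), Ascl2 (-3.66 ± 0.31), Phlda2 (-1.44 ± 0.22) and Slc38a4 (-0.71 ± 0.07) were lower and lie on several chromosomes. Unlike the other lower genes named here, Ascl2 and Phlda2 had been higher at day 3 (2.49 and 1.565). Dlk1 (-4.68 ± 0.49), Rian (-0.67 ± 0.08), Rtl1 (-0.92 ± 0.13) and Mirg (-0.70 ± 0.11) lie in the lowered block of chromosome 12 that holds Setd3. Snrpn was higher, from 0.185 ± 0.121 CPM in the wild-type to 2.38 ± 0.380 CPM (3.63 ± 0.44). Both paternally and maternally expressed genes were on the lower side.

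Some regulators of DNA methylation were changed. The de novo DNA methyltransferases Dnmt3a, at 329, 361 and 307 CPM against 114, 144 and 143 CPM (1.32 ± 0.12, adjusted p = 1.19e-08), and Dnmt3b and the oxidase Tet1 (0.96 ± 0.15) were higher, and Tet2 was lower (-1.40 ± 0.13). The whole list of DNA methylation and the germline genes it silences had 7 of 20 higher and 4 lower. Xlr3a (-6.68 ± 0.33) and Xlr4a, with 3 counts against 306 (ratio of wild-type to knock-out 102, 95% interval 34.5 to 496), were lower; they belong to an X-linked family of near-identical copies, so their counts are uncertain, and the difference was of similar size at day 0 (-6.17 and -7.07). Of 23 Polycomb genes 7 were lower and 5 higher, shares of 30.4% and 21.7% that are near those of all tested genes (27.6% and 26.3%). Phc1 (1.31 ± 0.13), Cbx7 (1.24 ± 0.12) and Kdm2b (0.89 ± 0.11) were higher and Bmi1 (-1.66 ± 0.20), Ring1 (-1.24 ± 0.13), Phc2 (-0.85 ± 0.12) and Cbx2 (-0.51 ± 0.05) lower, so that the paralogues Phc1 and Phc2, and Cbx7 and Cbx2, stood on opposite sides. Hox genes, classical Polycomb targets, were near 0 in both genotypes: the 11 that passed the filter did so through other days and had 0 to 8 counts per genotype at day 4, too few for a comparison. Interferon response genes were higher in 6 of 19 and lower in 3, beside 26.3% and 27.6% of all tested genes, of which 54.0% were changed. Ifit2 stood at 17.7, 24.4 and 18.5 CPM against 4.28, 5.63 and 5.60 CPM (1.96 ± 0.15, adjusted p = 5e-11), with Irf1 (0.98 ± 0.12) and, on chromosome 8, Bst2 (1.14 ± 0.12) higher and Ifitm1 (-2.72 ± 0.23) and the class I genes H2-K1 (-1.13 ± 0.11) and H2-D1 (-0.70 ± 0.13), which resemble each other in sequence, lower.

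Housekeeping lists differed by little. Of 29 cytosolic ribosomal protein genes 9 were lower and none was higher by edgeR (0 with an unadjusted p under 0.05, 0 by DESeq2), with a median of -0.11; the strongest, Rps19, was at -0.30 ± 0.07, and without wild-type replicate 1 or knock-out replicate 1 the lower count was 2 and 4. Of 26 nuclear-encoded respiratory chain genes 8 were lower and 6 higher (3 without knock-out replicate 2), all by less than 2-fold, with Ndufa9 at -0.45 ± 0.08 and Sdhb at 0.28 ± 0.05. In cholesterol synthesis 10 of 23 were lower (6 without wild-type replicate 1) and 4 higher (2 without knock-out replicate 1). Ebp, a sterol isomerase, was the member with a change over 2-fold, at 20.96, 18.1 and 22.1 CPM against 61.7, 53.7 and 46.4 CPM (-1.40 ± 0.12, adjusted p = 3.12e-10), and Sqle was higher (0.33 ± 0.06).

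The day 4 difference was not that of the earlier days. By the test of the change between days, the genotype effect was more positive at day 4 than at day 3 for 2166 genes (12.6%) and more negative for 1913 (11.2%). Against day 0 the corresponding numbers were 3072 (17.9%) and 3212 (18.7%). Of the genes lower at day 4, 1462 had a more negative difference than at day 3, and of those higher, 1662 a more positive one. Motile cilia genes had medians of -0.26, -1.32, -0.72 and -2.30 at days 0, 2, 3 and 4, and the difference was more negative than at day 3 for 13 and more positive for 1. Axon guidance genes went from -0.12 at day 0 to -0.66 at day 3 and -1.09 at day 4, with 11 more negative and 8 more positive than at day 3. For imprinted genes 16 were more negative and 2 more positive than at day 3, for BMP genes 8 and 3, for DNA replication 0 and 15, for mitosis 0 and 9, and for the unfolded protein response 6 and 0. Collagen genes had a median of 0.01 at day 3, and 4 of them were more negative at day 4 and 1 more positive. The days share no library, but the knock-out and wild-type lines are the same throughout.

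**Figure D4:**
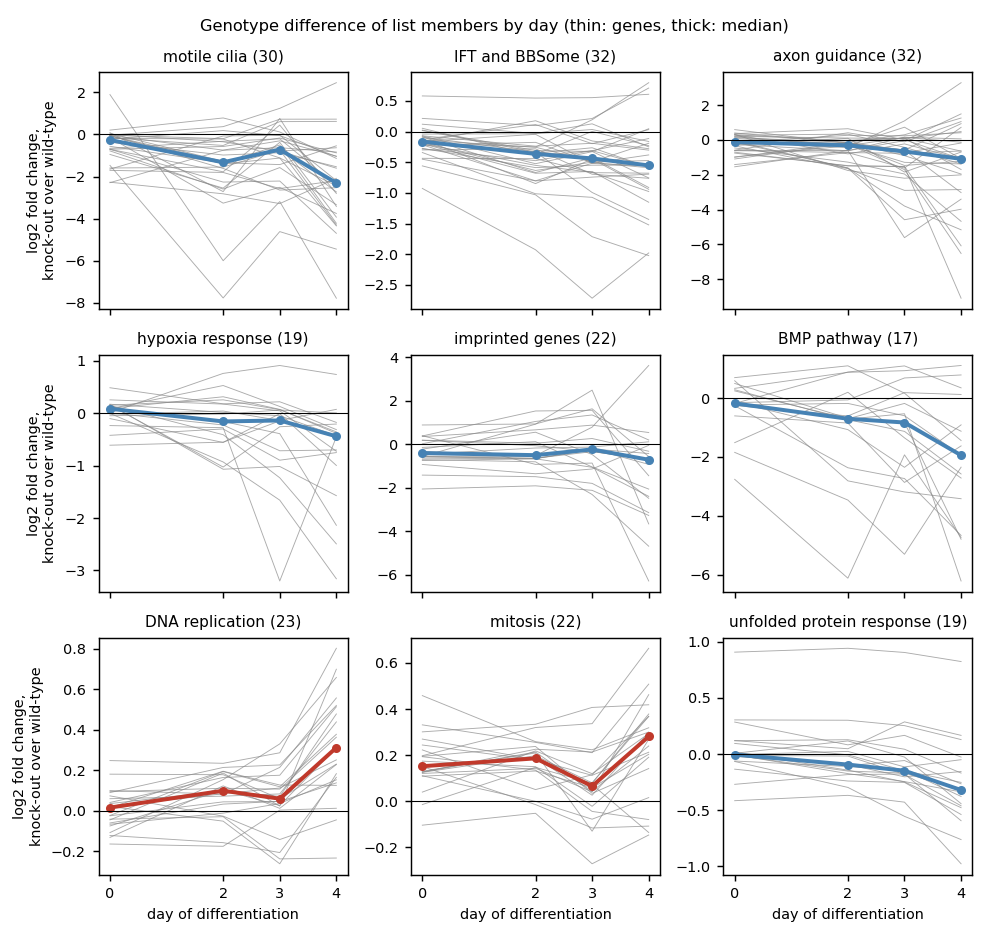
Log2 fold change of knock-out over wild-type (vertical) at days 0, 2, 3 and 4 (horizontal) for the tested members of 9 lists, each thin line a gene and the thick line the median; vertical scales differ between panels. Medians of the cilia, axon guidance, BMP and unfolded protein response lists were lowest at day 4, and that of DNA replication was highest there.

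Genes whose difference changed most between days 3 and 4 lay on both sides. Akr1c19, an aldo-keto reductase gene, was at 0.163 ± 0.0582 and 0.128 ± 0.177 CPM in knock-out and wild-type at day 3 and at 0.143 ± 0.0850 and 27.8 ± 12.01 CPM at day 4, with a higher mean at day 4 in the wild-type (difference of differences -7.87 ± 1.39, adjusted p = 0.000316). Hnf4a, Kcnj5, Robo3 and Sfrp5 had the other 4 lowest values of this kind. Wnt8a was at 1.54 ± 0.136 and 87.7 ± 6.69 CPM at day 3 and at 10.8 ± 3.94 and 15.1 ± 5.98 CPM at day 4, where the genotypes overlapped and the difference did not pass the test (-0.48 ± 0.30, adjusted p = 0.191), except without wild-type replicate 1 (-0.77). T, Sp5, Mixl1 and Lhx1, also genes of the primitive streak, had the next highest values; their differences at day 4 were -1.65, -2.03, -2.39 and -4.88, against -6.33, -7.28, -6.60 and -8.90 at day 3. Against day 0, the 5 lowest were Hnf4a, Robo3, Kdr, Pga5 and Tbxas1, and the 5 highest T, Clic5, Vat1l, Nefm and Wnt8a. For Clic5, an intracellular chloride channel gene, the difference turned from -2.41 at day 0 to 2.61 ± 0.19 at day 4, and for the neurofilament gene Nefm from -2.52 to 2.10 ± 0.25.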

How the data were processed

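PolyA+ RNA of CJ9 cells of 2 genotypes at days 0, 2, 3 and 4 was sequenced in 24 libraries, 3 per group. The deposited table holds 1 whole-number count per gene and library; the authors used Trimmomatic, HISAT2 and GRCm38.p6, per the submitters' processing notes, and their versions, the counting tool and its strand setting are not stated there. Of 55401 entries 29207 had counts. Names followed GENCODE M21 by identifier for 55141 entries, since 1616 names in the table differ from it.

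The test used edgeR 4.0.16 under R 4.3.3 (TMM scaling, filterByExpr by group, robust quasi-likelihood fit of all 24 libraries, common biological coefficient of variation 0.0906), with Benjamini-Hochberg adjustment and a threshold of 0.05. Tested on simulated counts for the day 4 comparison, recovery was 71.6% (67 genes) at 1.5-fold, 89.6% (67) at 2-fold and 100% (66) at 4-fold, with 11 calls among 16778 unchanged genes. The seeded genes were few, balanced between rises and falls, and above a minimum of expected counts. Recovery for genes of few counts, or where 54.0% of genes are called as in the data, was not measured. Alternatives were DESeq2 1.42.0 size factors, its Wald test, no filter on low counts, a replicate block, the 6 libraries of day 4 alone, each of them left out, chromosome 8 with chromosome 12 from 90 Mb left out, and a 2-fold minimum. The counts of any pair of libraries of a genotype differed by more than sampling noise (chi-square per degree of freedom 3.56 to 15.3), so each library was used as 1 sample.

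The comparison and the 54 lists (1044 of 1046 genes found) were chosen with earlier results of these data known. Named genes were Setd3; the 12 largest folds and 6 largest CPM differences each way among called genes without overlap, whose higher mean reached 10 CPM and whose symbol is no clone name; the 5 most changed each way against days 3 and 0; and up to 6 members of a list by adjusted p. Further members were named for their role after their values were seen, and some genes that the rule names are not reported here. Bounds use a floor of 3 counts over a group, or 0.0472 CPM over the knock-out libraries, and intervals are 95% exact intervals of the ratio of 2 counts. Promoter windows came from RefSeq on GRCm38.p6, matched by symbol.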

Additional observations from a re-analysis of the deposited data

Results flagged for a closer look

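Each value here is a difference of differences on the log2 scale, the genotype effect at day 4 minus that at an earlier day, and was singled out because the edgeR test of that difference passed an adjusted p of 0.05.

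Against day 3 the values were -11.41 for Hnf4a, -7.873 for Akr1c19, -7.757 for Kcnj5, -7.551 for Robo3 and -6.975 for Sfrp5, all lower in the knock-out at day 4. In the opposite direction stood Wnt8a at 5.341, Sp5 at 5.255, T at 4.682, Mixl1 at 4.206 and Lhx1 at 4.02, genes of the primitive streak whose deficit in the knock-out was smaller at day 4 than at day 3. The value of Hnf4a, with 0 counts in the knock-out, is a fitted value and no bound, and it did not pass the test when no filter on low counts was applied (adjusted p = 0.1).

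Against day 0 the values were -12.1 for Hnf4a, -8.331 for Robo3, -8.215 for Kdr, -8.142 for Pga5 and -8.115 for Tbxas1, and 5.415 for T, 5.022 for Clic5, 4.867 for Vat1l, 4.617 for Nefm and 4.564 for Wnt8a. Vat1l lies on chromosome 8, where knock-out levels were raised along the chromosome. Setd3 itself had -0.6514, so its deficit was larger at day 4 (-2.05) than at day 0 (-1.40).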

How the results depend on the processing

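Counts of genes higher and lower at day 4 stayed within 1.5 times of the main ones under every alternative but a 2-fold minimum, which left 1281 and 1993. They were 4592 and 4647 with DESeq2 size factors, 4631 and 4608 by DESeq2's Wald test, 4347 and 4660 with no filter, 4290 and 4487 in the 6 libraries alone, and 4185 and 4410 without chromosome 8 and chromosome 12 from 90 Mb. Leaving out 1 library of day 4 gave 4073 to 4380 higher and 4281 to 4559 lower. For the change against day 3 it gave 1773 to 2094 more positive and 1596 to 1960 more negative, and against day 0 2713 to 3151 and 2898 to 3096. Same-numbered libraries of both genotypes did not deviate together (correlations 0.00106, 0.0227 and 0.00628), so no pairing by number was detected. Pairs of different number were not set beside them, and the labels do not say whether a number marks a shared culture. With the number as a replicate block 4557 were higher and 4769 lower, 2203 and 1945 against day 3, and 3114 and 3222 against day 0, and no named gene or list count changed its call. Of 408 values of named genes, 0 were reversed. Without wild-type replicate 1, 6 no longer passed the test, among them Rpl19 (-0.13), Rps6 (-0.14), Rplp0 (-0.13) and Rpl5 (-0.14); Rps6 and Rpl5 were also lost without knock-out replicate 1 and Pdzk1 (-0.30) without knock-out replicate 3. The causes were not tested.

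The limits are those of 3 libraries per genotype, of 1 knock-out line, of bulk RNA and of counts whose strand handling is unknown. At 20345447 to 22250361 counts per library, a gene at 1 CPM rests on few counts. Changes of 1.5-fold were missed in part in simulated data.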

Other observations

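Genes that share the letters of their symbol were counted after their values had been seen, for families of at least 12 tested genes, without a test. Beside them stand 26.3% higher and 27.6% lower of all tested genes. Of the families named here, chosen for their lean, 11 of 14 Ift genes (intraflagellar transport) and 17 of 27 Cfap genes (cilia and flagella associated proteins) were lower, and 48 of 116 Ccdc genes (coiled-coil proteins) were lower and 18 higher. Of 52 Cd genes (leukocyte and cell surface antigens) 25 were lower and 5 higher, 20 and 1 of them at least 2-fold. Keratins (Krt) were lower in 7 of 13, and T-box genes (Tbx) lower in 8 of 13 and higher in 2. Of 28 Sec genes 13 were lower (46.4%), of 14 syntaxins (Stx) 9 were lower and 2 higher, and of 13 Trappc genes 8 were lower and 2 higher.

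Other families, likewise chosen for their counts, held more higher members. Of 18 nucleoporin genes (Nup) 15 were higher and 2 lower, of 36 Ddx helicase genes 20 and 2, of 16 Dhx helicase genes 10 and 3, of 13 Prpf splicing genes 7 and 1, of 13 Lsm genes 8 and 2, and 7 of 14 Integrator genes (Ints) were higher. The cadherin symbols (Cdh) were higher in 11 of 19 and lower in 4, 3 of the higher and 1 of the lower lying on chromosome 8, and zinc finger genes of the Zfp series were higher in 125 of 363 (34.4%) and lower in 72. Histone genes (Hist) were higher in 11 of 33 and lower in 1, with 10 at least 2-fold higher. Most histone mRNAs carry no poly(A) tail, and the libraries were made from polyadenylated RNA.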
